A study of Arabidopsis thaliana with 6 samples.

Results

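CYP71B6, CYP71B23 and CYP71B26 are Arabidopsis cytochrome P450 genes of 1 subfamily, and each was read by 1 probe set that the platform annotation assigns to that gene alone. They are 3 of 13356 genes with a probe set of their own on the array. They were chosen with their signals in pho3 and wild type on these same arrays known, so their differences between the lines are described here without a test. RNA came from rosette leaves of the pho3 line (3 arrays) and of Ws-2, the wild type in whose background it was made (3 arrays). The pho3 line descends from the Feldmann collection of T-DNA insertion lines (stock N2614), and the wild type is stock N1601. The mutation is known to affect SUC2, which encodes a phloem-loading sucrose carrier, but SUC2 has no named probe set here and the insertion was not checked. Plants of both lines were stratified for 3 days at 4 °C and grown at 23 °C under 16 h light and 8 h dark. They spent 10 days on medium with 1% sucrose, were moved to compost and were sampled at developmental stage 6.0. The labels name 1 line per genotype and do not say how many plants went into an array or whether replicates were grown separately. The p-values below therefore measure only the spread between these arrays, which may be technical.

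Cytochrome P450s are haem enzymes that split molecular oxygen and insert 1 oxygen atom into a substrate, with electrons passed on by a reductase in the endoplasmic reticulum membrane. Plants have very large P450 families, many of which work in specialised metabolism and defence. CYP71B is among the larger subfamilies of Arabidopsis and has spread in part as runs of tandem copies. Its best known member, CYP71B15 (PAD3), makes the indole phytoalexin camalexin, but PAD3 has no named probe set here. CYP71B6 has been assigned a step from indole-3-acetonitrile towards indole-3-carboxylic acid. No role is given here for CYP71B23 or CYP71B26.

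The RefSeq gene table (assembly TAIR10.1) lists 37 CYP71B genes, 34 of them protein coding, and 19 had a probe set of their own. CYP71B23 (AT3G26210) and CYP71B26 (AT3G26290) lie in the same stretch of the genome, rich in CYP71B genes, which extends from CYP71B16 (AT3G26150) to CYP71B37 (AT3G26330). The immediate neighbours of CYP71B23 are CYP71B22 and CYP71B3, and those of CYP71B26 are CYP71B4 and the pseudogene CYP71B33. CYP71B6 (AT2G24180) lies elsewhere and has no CYP71B gene beside it. Near-identical copies could share signal on an array, and cross-hybridisation was not tested. Where a value is given as a signal, it is the deposited linear intensity of the probe set. Signal levels are compared between arrays for 1 gene, and no gene's level is set against another's.

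A pair of arrays stood apart from their labelled groups. The spread of log2 differences between arrays, as a scaled median absolute deviation over 13983 probe sets, was 0.27 to 0.31 between the array labelled wild-type replicate 1 and the 3 pho3 arrays. Against wild-type replicates 2 and 3 it was 0.48 and 0.47. The array labelled pho3 replicate 3 was 0.43 and 0.44 from the other pho3 arrays and 0.35 and 0.37 from wild-type replicates 2 and 3. The differences between the lines are therefore given with all arrays and, for most genes, without wild-type replicate 1 and without both of these arrays. The leaf label was checked against mesophyll markers: 5 of 7 had a named probe set, and their summed signal was 9036 to 12412 on the pho3 arrays and 11363 to 14250 on the wild-type arrays. The sum was lowest on pho3 replicates 1 and 2 and highest on wild-type replicates 2 and 3, and its part in the differences below was not tested. The guard cell marker FMA read 40.9 to 50.2 in pho3, against 48.6 to 63.7 in wild type. The root marker PYK10 read 20.1 to 21.5 in pho3, against 16.9 to 22.9 in wild type, under the 40th percentile of each array. No marker of phloem, xylem, trichome, flower or seed had a named probe set.

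All 3 genes had a higher mean signal in pho3 than in wild type, and for all 3 the array labelled wild-type replicate 1 read far above the other wild-type arrays. On the pho3 arrays their probe sets lay between the 85.0th and the 95.7th percentile of all probe sets. On the wild-type arrays they lay between the 53.9th and the 93.1st, with CYP71B6 at the 86.1st or above on each. Percentiles also depend on how well each probe set binds. In leaf RNA of this kind a larger share of expressing cells and more RNA per cell cannot be told apart.

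CYP71B6 gave signals of 419, 470.0 and 397 on pho3 replicates 1, 2 and 3, and of 411, 256 and 219 on wild-type replicates 1, 2 and 3. The pho3 arrays were close to each other, the array labelled wild-type replicate 1 fell among them, and wild-type replicates 2 and 3 lay below. The mean was 429 ± 37.6 in pho3, against 295 ± 102 in wild type (SD, n = 3 each). The log2 difference was 0.59 (SE 0.25, moderated by limma as are all SEs here), a 1.5-fold ratio of geometric means, and the groups overlapped. It was 0.85 (SE 0.16) without wild-type replicate 1 and 0.91 (SE 0.15) without both arrays.

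CYP71B23 varied most of the 3 genes. It gave 508, 570.4 and 248 on pho3 replicates 1, 2 and 3, against 318, 101 and 48.1 on wild-type replicates 1, 2 and 3. Here the arrays labelled pho3 replicate 3 and wild-type replicate 1 lay in the middle, with the array labelled wild-type replicate 1 above pho3 replicate 3, so the groups overlapped. The 2 remaining wild-type arrays also differed from each other. The mean was 442 ± 171 in pho3, against 156 ± 143 in wild type (SD, n = 3 each), and the log2 difference was 1.85 (SE 0.68), or 3.60-fold. Without wild-type replicate 1 it was 2.58 (SE 0.44), and without both arrays 2.95 (SE 0.34), or 7.74-fold.

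CYP71B26 gave 305, 397 and 202 on pho3 replicates 1, 2 and 3, and 267, 111 and 90.0 on wild-type replicates 1, 2 and 3. The order of the arrays matched that of CYP71B23, with the array labelled wild-type replicate 1 between pho3 replicates 1 and 3. The mean was 301 ± 97.7 in pho3, against 156 ± 96.6 in wild type (SD, n = 3 each). The log2 difference was 1.07 (SE 0.44), or 2.10-fold. It was 1.54 (SE 0.29) without wild-type replicate 1 and 1.80 (SE 0.19), or 3.49-fold, without both arrays.

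**Figure D1:**
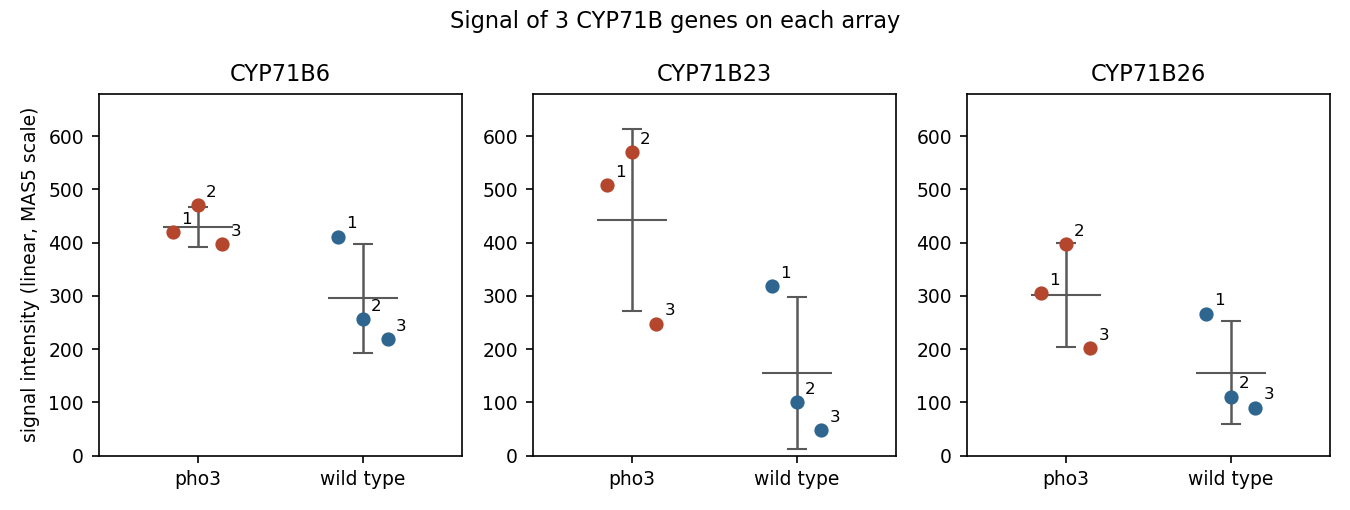
Signal intensity (linear, y axis) of CYP71B6, CYP71B23 and CYP71B26 on each array, with pho3 left of wild type, replicate numbers beside the points, and the mean ± SD of 3 arrays as a bar. In each panel the point for wild-type replicate 1 lies among the pho3 points, and wild-type replicates 2 and 3 lie below all pho3 points.

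With all 6 arrays 0 of the 3 genes had groups that did not overlap. Among all 13983 probe sets tested, 5.31% had pho3 above wild type throughout. Without wild-type replicate 1 the groups did not overlap for 3 of 3 genes, where 26.3% of all tested probe sets had pho3 above. Without both arrays the figures were 3 of 3 genes and 36.8%. The genes were chosen on this contrast, so nothing is read from these counts. Ranked by log2 difference over all 6 arrays, 1.35% of the tested probe sets exceeded CYP71B23, 3.72% exceeded CYP71B26 and 9.56% exceeded CYP71B6. The same shares without wild-type replicate 1 came to 1.56%, 3.77% and 9.14%, and without both arrays 1.45%, 3.68% and 10.9%.

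The 3 genes differed in how far their signal ranged over the arrays. The highest array exceeded the lowest 11.9-fold for CYP71B23, 4.41-fold for CYP71B26 and 2.15-fold for CYP71B6. Among the wild-type arrays alone the figures were 6.61-fold, 2.96-fold and 1.88-fold, and among the pho3 arrays 2.30-fold, 1.97-fold and 1.18-fold. The ranges thus hold spread within the lines as well as the difference between them. To compare changes and not levels, the log2 ratio of CYP71B23 to CYP71B6 within arrays was set to 0 at the mean of wild-type replicates 2 and 3. It was 2.04, 2.05 and 1.09 on pho3 replicates 1, 2 and 3, and 1.39, 0.42 and -0.42 on wild-type replicates 1, 2 and 3. The same ratio for CYP71B26 to CYP71B6 was 0.79, 1.00 and 0.27 in pho3, against 0.62, 0.04 and -0.04 in wild type. CYP71B23 and CYP71B26 thus changed more than CYP71B6 between the arrays at the ends, while the arrays labelled pho3 replicate 3 and wild-type replicate 1 took middle places.

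The place of those 2 arrays was measured on the log2 scale from 0% at the mean of wild-type replicates 2 and 3 to 100% at the mean of pho3 replicates 1 and 2, a measure chosen after the values had been seen. The array labelled pho3 replicate 3 stood at 82.1% for CYP71B6, 62.1% for CYP71B23 and 56.5% for CYP71B26. Over the 3072 tested probe sets that were at least 0.5 higher at the pho3 end, its median was 51.2%, with quartiles of 32.8% and 67.2%. The array labelled wild-type replicate 1 stood at 87.8%, 74.2% and 78.7% for the same genes, where the median of the 3072 was 75.0% and the quartiles 58.1% and 89.6%. On wild-type replicate 1 all 3 genes lay within those quartiles. On pho3 replicate 3 CYP71B6 lay above them and the other genes within.

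The other CYP71B genes were set beside the 3 genes. Of 16 others with a probe set of their own, 6 were bright enough to be tested, that is, at or above the 40th percentile of the array on at least 3 arrays. The remaining 10 gave signals between 0.468 and 39.5 and were not tested. Of the 6, 2 had a higher and 4 a lower mean in pho3, and the median log2 difference was -0.48, against 0.00 over all tested probe sets. With no filter the median over all 16 was -0.15, against -0.04 over all probe sets. The 3 genes chosen on this contrast, all higher in pho3, are left out of these medians. The medians therefore do not show how the subfamily moved as a whole. With all arrays 0 of the 6 were called higher and 0 lower by limma at an adjusted p of 0.05, the same as the 0.0% called in each direction over all probe sets (lowest adjusted p = 0.375). At an unadjusted p of 0.05, 0 were higher and 2 lower, where 5.77% and 4.85% of all probe sets passed.

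CYP71B35 had the largest difference among the 6 over all arrays. It gave 33.4, 30.9 and 30.8 in pho3, against 41.2, 55.5 and 53.3 in wild type, so that every pho3 array lay below every wild-type array. Its log2 difference was -0.65 (SE 0.18, limma adjusted p = 0.375). With a pseudocount of 16 it was -0.46, where CYP71B34 was at -0.46 and CYP71B5 at -0.44. The pho3 signals of CYP71B35 were not far above the 40th percentile of those arrays (26.5 to 27.8). CYP71B34, its direct neighbour, gave 81.4, 67.8 and 85.0 in pho3, against 85.3, 113 and 147 in wild type, again with all pho3 arrays lower, though pho3 replicate 3 and wild-type replicate 1 were nearly level. Its log2 difference was -0.53 (SE 0.22, limma adjusted p = 0.375). These were the 2 of 6 genes whose groups did not overlap with pho3 lower, where 5.81% of all tested probe sets did the same.

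CYP71B5, which lies outside that stretch, gave 64.3, 82.1 and 88.5 in pho3, against 81.2, 131 and 127 in wild type. Its groups overlapped through the array labelled wild-type replicate 1, and the log2 difference was -0.51 (SE 0.23, limma adjusted p = 0.375). CYP71B22, the direct neighbour of CYP71B23, gave 18.8, 22.4 and 37.4 in pho3, against 32.3, 34.8 and 36.3 in wild type. It was low on pho3 replicates 1 and 2, the arrays where CYP71B23 was highest, and level with wild type on pho3 replicate 3 (log2 difference -0.46, SE 0.29, limma adjusted p = 0.408). Replicates 1 and 2 lay under the 40th percentile. The difference also depended on single arrays: it was -0.25 without pho3 replicate 1 and -0.75 without pho3 replicate 3. It was -0.50 without wild-type replicate 1 and -0.79 without both arrays (limma adjusted p = 0.0547).

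CYP71B28 gave 222, 243 and 198 in pho3, against 229, 211 and 205 in wild type, which amounts to 0.04 on the log2 scale (SE 0.14, limma adjusted p = 0.894). The difference was 0.08 without wild-type replicate 1 and 0.16 without both arrays. CYP71B28 was the most even of the tested CYP71B genes across the arrays. CYP71B36 gave 25.4, 37.2 and 30.6 in pho3, against 22.3, 42.1 and 23.2 in wild type, close to the limit for testing, and differed by 0.13 on the log2 scale (SE 0.31, limma adjusted p = 0.811). Its sign turned to -0.03 without wild-type replicate 1.

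Without wild-type replicate 1, 0 of the 6 genes were called higher and 0 lower by limma, at 4.61% and 0.837% of all tested probe sets (at an unadjusted p of 0.05, 0 higher and 3 lower, with 17.3% and 14.6% of all probe sets). CYP71B35 then differed by -0.78 (adjusted p = 0.0556), CYP71B5 by -0.73 (adjusted p = 0.0666) and CYP71B34 by -0.73 (adjusted p = 0.0702). Without both arrays 3 of the 6 were called lower and 0 higher by limma, with 16.5% and 18.2% of all tested probe sets called in these directions. CYP71B5 fell by 0.83 on the log2 scale (limma adjusted p = 0.0154), CYP71B34 by 0.80 (limma adjusted p = 0.0244) and CYP71B35 by 0.76 (limma adjusted p = 0.0238). That fit keeps only 2 arrays per line, at the ends of the series, and the arrays were dropped with these data in view. The 3 calls are lost when either array is put back, since 0 were called without wild-type replicate 1 alone or without pho3 replicate 3 alone. With limma's array weights, which count those 2 arrays least, 3 of the 6 genes were again called lower and 0 higher, with 14.5% and 16.0% of all probe sets. Groups did not overlap, with pho3 lower, for 3 of the 6 genes without wild-type replicate 1 (26.9% of all tested probe sets) and for 4 of the 6 without both arrays (35.7%). Without both arrays CYP71B28 had pho3 above wild type throughout, as 36.8% of all tested probe sets did.

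**Figure D2:**
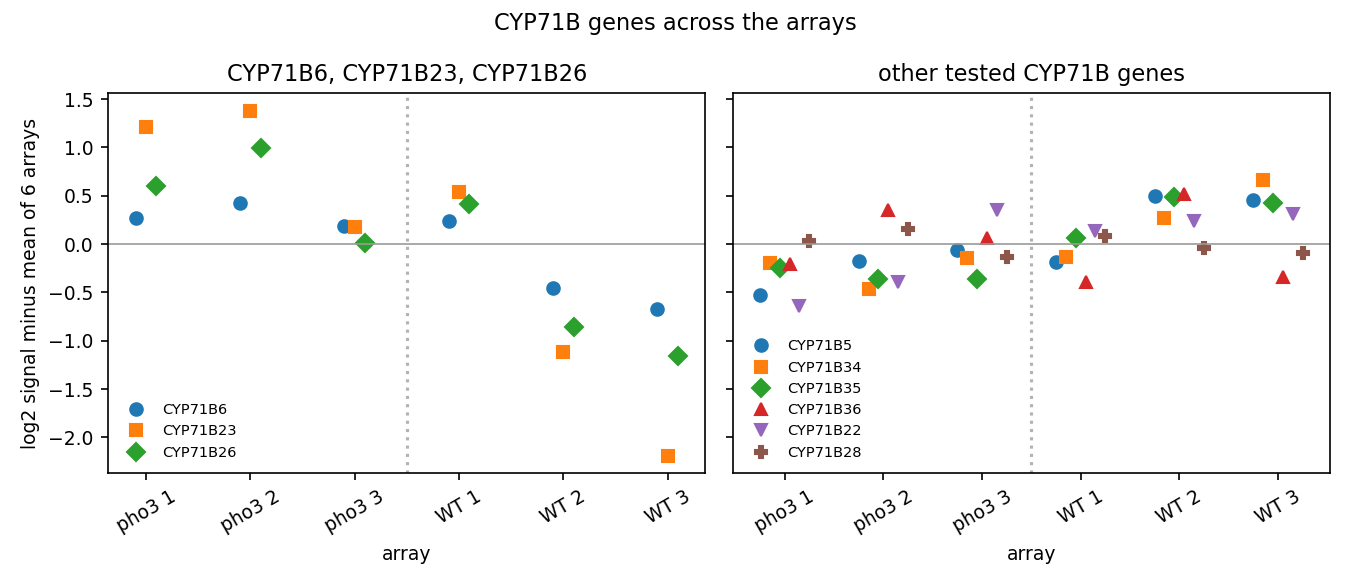
Log2 signal minus the mean of the 6 arrays (y axis) for CYP71B6, CYP71B23 and CYP71B26 (left) and the 6 other tested CYP71B genes (right), with the pho3 arrays left of the wild-type arrays in each panel and points offset sideways by gene. The 3 genes on the left, chosen with these values known, span from 1.38 to -2.19, both values of CYP71B23. CYP71B6 spans only 0.43 to -0.67, and the genes on the right stay between 0.66 and -0.64.

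**Figure D3:**
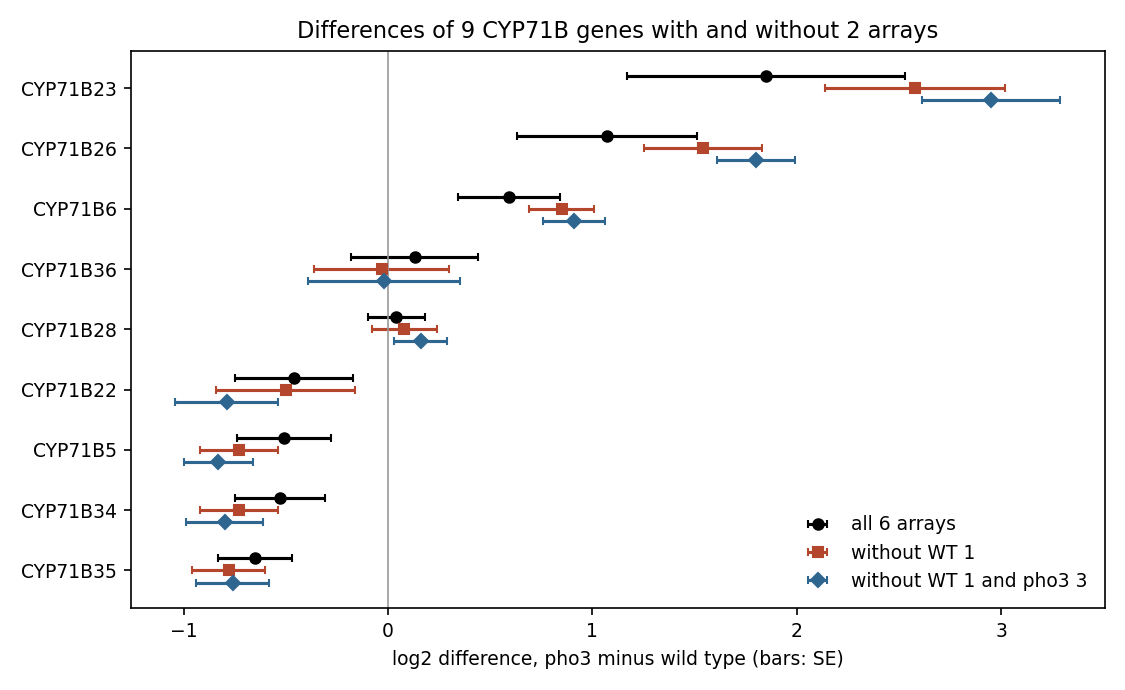
Log2 difference, pho3 minus wild type (x axis, bars show the SE), of 9 CYP71B genes with all 6 arrays, without wild-type replicate 1, and without wild-type replicate 1 and pho3 replicate 3. CYP71B23, CYP71B26 and CYP71B6 lie above 0 in each, CYP71B22, CYP71B5, CYP71B34 and CYP71B35 below 0, and CYP71B36 and CYP71B28 near 0.

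P450 genes of other families were sparsely covered. Of 4 with a probe set of their own, only CYP78A9, a P450 known to promote fruit and seed growth, was bright enough to be tested. It gave 120, 192 and 179 in pho3, against 139, 221 and 149 in wild type, and the groups overlapped (log2 difference -0.05, SE 0.26, limma adjusted p = 0.914). CYP84A4 read 20.4 to 22.0 in pho3, against 14.9 to 24.5 in wild type. CYP79A2, which acts on phenylalanine in benzylglucosinolate synthesis, read 1.37 to 1.54 in pho3, against 1.23 to 2.58 in wild type. CYP51G2, listed as a transcribed pseudogene, read 18.6 to 20.9 in pho3, against 24.1 to 29.4 in wild type. These 3 were dim and not tested. None of the 8 listed redox partners of P450s, the reductases and cytochrome b5 proteins, had a named probe set.

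Genes of indole metabolism were listed because CYP71B6 and PAD3 act there. Only 2 of 32 had a named probe set, and both were tested. UGT74B1, a glucosyltransferase of glucosinolate synthesis, gave 287, 306 and 380 in pho3, against 327, 500.0 and 536 in wild type. It was lower on all pho3 arrays than on wild-type replicates 2 and 3, but the array labelled wild-type replicate 1 lay inside the pho3 range (log2 difference -0.46, SE 0.23, limma adjusted p = 0.375). The oxidase gene AT1G26380, listed as FOX1, which acts in the synthesis of a cyanogenic indole compound, gave 24.5, 26.7 and 31.8 in pho3, against 32.5, 1.90 and 6.66 in wild type. It was near the limit for testing on 4 arrays and far under it on wild-type replicates 2 and 3, so no fold is given (limma adjusted p = 0.376). With all arrays 0 of the 2 genes were called by limma, as were 0.0% of all probe sets in each direction. At an unadjusted p of 0.05 it was also 0 of 2, where 5.77% of all probe sets were higher and 4.85% lower. Without wild-type replicate 1 the adjusted p was 0.0688 for UGT74B1 and 0.0589 for AT1G26380. Without both arrays UGT74B1 fell by 0.80 on the log2 scale (limma adjusted p = 0.00605), where 16.5% of all tested probe sets were called lower. With only pho3 replicate 3 left out its adjusted p was 0.208. AT1G26380 had an adjusted p of 0.0498 in the fit without both arrays, where 18.2% of all tested probe sets were called higher, and 0.384 with only pho3 replicate 3 left out. It had passed the filter through pho3 replicates 2 and 3 and the array labelled wild-type replicate 1, so 1 of the 4 arrays in that fit lay above the 40th percentile, and nothing is read from its call.

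Genes with the array profile nearest to each of the 3 P450 genes were found by the root mean square difference of mean-centred log2 signals over the 6 arrays, among 7611 other tested single-gene probe sets. The profile includes the difference between the lines that chose the 3 genes. The arrays also share their departures from their groups over many genes, so close profiles are common. For CYP71B6 the nearest were AT5G63130 (0.04), AT1G22160 (0.05), AT4G28480 (0.06) and AT3G19520 (0.07). AT5G63130 gave 192, 211 and 171 in pho3, against 192, 116 and 98.3 in wild type.

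For CYP71B23 the nearest were AT1G76970 (0.10), APL3 (0.13), AT2G15042 (0.16) and AT1G72900 (0.17). APL3, a large subunit of ADP-glucose pyrophosphorylase in starch synthesis, gave 541, 549.5 and 256 in pho3, against 397, 99.3 and 56.3 in wild type. AT1G76970 gave 115, 119 and 52.7 in pho3, against 68.3, 25.9 and 10.5 in wild type. In both genes, as in CYP71B23, the array labelled wild-type replicate 1 read above pho3 replicate 3 and wild-type replicate 3 was lowest.

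For CYP71B26 the nearest were AT5G11930 (0.07), AT1G25370 (0.08), AT5G42830 (0.09) and the lectin gene EULS3 (0.09). EULS3 gave 317, 409 and 208 in pho3, against 300, 129 and 109 in wild type. The 3 P450 genes were not each other's nearest: CYP71B26 was 124th in the order for CYP71B23 and CYP71B6 was 527th. In the order for CYP71B26, CYP71B6 was 382nd and CYP71B23 1010th. CYP71B28, the closest of the other CYP71B genes, was 2750th for CYP71B23 and 2515th for CYP71B26. For CYP71B6, whose signal varied little, CYP71B28 came before the others at 2160th, with CYP71B26 at 2577th and CYP71B23 at 7143rd. The measure counts the size of changes as well as their shape, so these places do not rank likeness of shape alone.

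**Figure D4:**
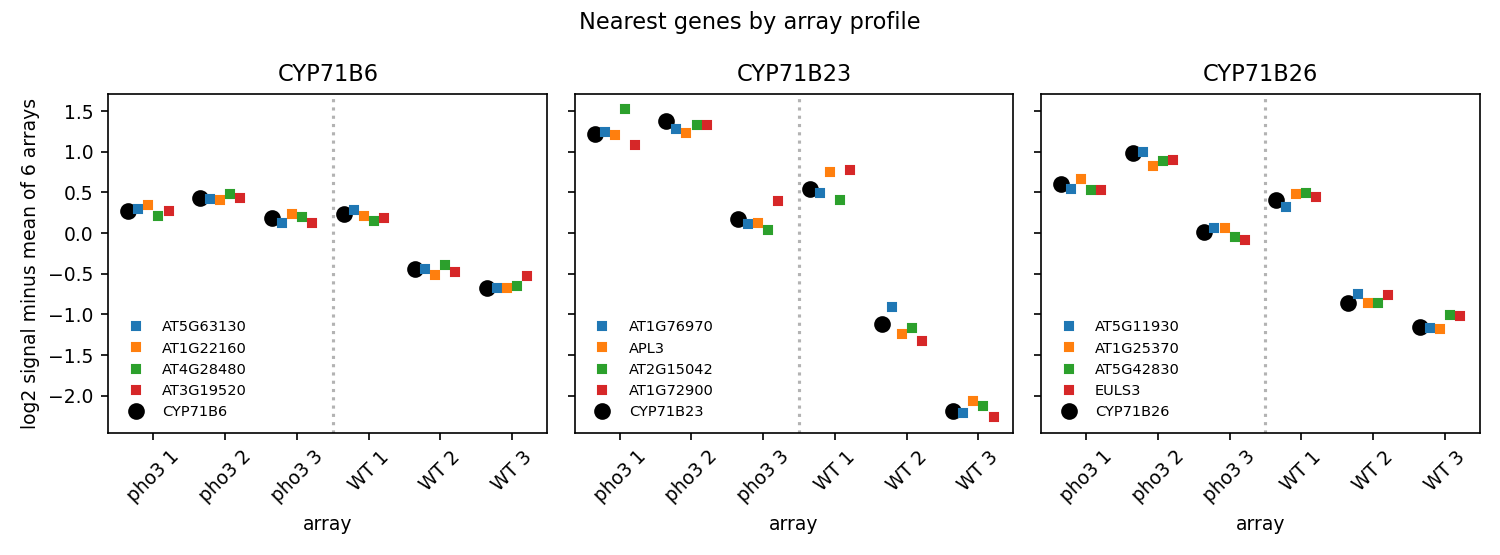
Log2 signal minus the mean of the 6 arrays (y axis) for CYP71B6, CYP71B23 and CYP71B26 (black) and the 4 genes nearest to each (colours, offset sideways), with pho3 arrays left of wild-type arrays. The nearest genes follow each P450 gene with a root mean square difference of 0.04 to 0.17.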

How the data were processed

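Leaf RNA was measured on 6 Affymetrix arrays, 3 per line. MAS5, with no version, is named in the submitters' processing notes. The deposited values are linear signal intensities, 1 per probe set and array, with a trimmed mean (2% cut from each tail) of 100.0 for each array. The median signal was 40.4 to 44.2, and the number of arrays limits the precision. Arrays were grouped by their titles. Of 22810 probe sets, 64 controls were left out. Of the other 22746, 13983 at or above the 40th percentile of their array on at least 3 arrays were tested on log2 signals, with no pseudocount, by limma 3.58.1 in R 4.3.3 (lmFit, eBayes with trend, two-sided, Benjamini-Hochberg over all tested, threshold 0.05). Differences are pho3 minus wild type. Each SE is limma's moderated SE, which draws on the spread of all tested probe sets. Scripts were tested on simulated data. Tables and figures used python 3.11.15, pandas 2.3.3 and matplotlib 3.10.9.

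Names came from the platform annotation and the RefSeq table (13513 probe sets with 1 gene, 503 with several, 8730 unlisted and unnamed here; 13436 matched RefSeq). Coordinates are left out, since the annotation's genome build is not stated in these sources. Sequences were not used here. The 3 genes and all gene lists were chosen with earlier results of these data known. Named by rule were the 3 genes, the CYP71B genes and other P450 genes that were measured, tested list members, and the 4 nearest profiles to each gene. Dim CYP71B genes are summarised by their range. The alternatives tried were no filter, a 60th percentile filter, a pseudocount of 16, quantile normalization, median centring, eBayes without trend, array weights, a block for replicate number, and fits with arrays left out.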

Additional observations from a re-analysis of the deposited data

How the results depend on the processing

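Over 15 alternatives the log2 differences kept their direction, between 0.40 and 0.91 for CYP71B6, 1.22 and 2.95 for CYP71B23, and 0.76 and 1.80 for CYP71B26. Changing the filter, eBayes without trend and the replicate block cannot alter a gene's log2 difference in this design. The 3 genes were also chosen on this contrast, so nothing is read from the kept direction. Leaving out 1 array in turn gave 0.40 to 0.85, 1.22 to 2.58 and 0.76 to 1.54. With wild-type replicate 1 and pho3 replicate 3 both left out, CYP71B23 was at 2.95 and CYP71B26 at 1.80. In that fit 2547 of all tested probe sets (18.2%) were called higher and 2305 (16.5%) lower. Of the 6 other tested CYP71B genes 3 were called lower, and of the 2 indole genes 1 was called in each direction. Array weights were lowest for the same arrays (0.443 for pho3 replicate 3, 0.367 for wild-type replicate 1). They gave 2237 higher (16.0%) and 2026 lower (14.5%), 3 of the 6 other CYP71B genes lower and 1 of the 2 indole genes in each direction. The indole gene called higher in both fits was AT1G26380, and nothing is read from its call. The weights use the same labels as the test. Leaving out 1 array gave 0 to 644 probe sets higher and 0 to 117 lower, above 0 only without wild-type replicate 1. The other alternatives called 0. The cause was not tested.

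With the replicate number as a block, 0 probe sets were called. The block cannot alter the log2 differences, which stayed at 0.59 for CYP71B6, 1.85 for CYP71B23 and 1.07 for CYP71B26. At the unadjusted p threshold 1639 probe sets were higher and 1401 lower, against 807 and 678 without the block. Of the 6 other tested CYP71B genes 0 were higher and 3 lower at that threshold, against 0 and 2 without the block. Deviations from the line means correlated at 0.39, -0.27 and 0.43 between same-numbered arrays, and at -0.62 to 0.52 between arrays of different number. These deviations cancel out within each line and include the arrays that stood apart. They therefore cannot show whether same-numbered arrays were paired. Signs turned for CYP71B36 (-0.00409 without pho3 replicate 2, -0.03 without wild-type replicate 1, -0.02 without both arrays), CYP71B28 (-0.03 without pho3 replicate 2) and CYP78A9 (0.15 without wild-type replicate 2, 0.16 without pho3 replicate 1), none of them called. CYP78A9 kept its sign with both arrays left out, at -0.26. The 60th percentile filter left out CYP71B22, CYP71B35, CYP71B36 and AT1G26380. For dim probe sets the size of a difference is the least certain.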
